A study of Mus musculus with 15 samples.

Results

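The 51 genes described here code for the machinery that copies DNA and divides cells, from the loading of the replicative helicase to the final cut between daughter cells. They were listed by function (replication, G2/M and mitosis), not by their values. All 51 symbols were found among the 21013 gene symbols of the count table, and all 51 passed the low-count filter, which left 16042 genes for testing. The study asked how the mouse submandibular gland responds to irradiation and to extracellular vesicles of mesenchymal stem cells, going by its title. The 15 libraries came from submandibular glands of male wildtype C57BL/6 mice that were 8 to 10 weeks old, with 3 libraries in each of 5 groups. IR_iEV_30d and IR_iEV_4d glands received 15 Gy at the gland region and iEVs injected into the gland once a week, the first at day 1, with collection at day 30 or at day 4. IR_30d and IR_4d glands received the same dose without iEVs, with collection at the same days. NT glands were not treated, and the day of their collection is not given. The labels name neither a vehicle-injected group nor one that got iEVs alone, so the injection and the iEVs cannot be told apart. The labels do not say that each library is a separate mouse, so the p-values measure the spread between these libraries, which may be technical.

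A dividing cell passes through an ordered cycle. In G1 the origins of replication are licensed by loading the MCM helicase, cyclin E and E2F factors open S phase, DNA is copied, and cyclin A and cyclin B with the kinase CDK1 then drive the cell through G2 into mitosis. There a kinesin-rich spindle separates the chromosomes, the anaphase-promoting complex destroys cyclin B, and the cell is cut apart at a midzone of bundled microtubules. Cells that stop before division keep these transcripts low through the p53 target p21, encoded by Cdkn1a, and through the RB family. The adult salivary gland renews itself slowly, and its differentiated secretory cells divide rarely.

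The listed genes were weakly expressed in these whole glands. Library totals ran between 29082798 and 52201098 counts. The mean level of a listed gene over the 15 libraries was between 0.419 and 15.1 CPM (read counts scaled to library size by TMM), with a median of 1.92, and 43 of the 51 averaged under 5 CPM. No listed gene had a count of 0 in any library, the lowest count was 2 and the median 66. Per kilobase of exon, the most abundant was Stmn1, which codes for the tubulin-binding protein stathmin, at 4.67 CPM per kilobase. Mcm2, a subunit of the replicative helicase, followed at 4.25 and Rrm1, the large subunit of ribonucleotide reductase, at 3.78. The least abundant was Bub1, a kinase of the spindle checkpoint, at 0.122 CPM per kilobase. In bulk tissue, fewer dividing cells and less of a transcript in each of them cannot be told apart.

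Libraries differed in the level of markers of neighbouring tissue. The submandibular acinar markers, 9 genes with Aqp5 among them, summed to at least 51000 CPM in every library. Most of this sum was Prol1, with group means of 54100 to 62400 CPM, against 206 to 333 CPM for Aqp5. In the parotid list, Bpifa2 averaged 23.9 CPM in NT, 1840 in IR_4d and 2260 in IR_iEV_4d glands. Car6 of that list averaged 21200 to 27600 CPM over the groups. The 6 of 7 listed sublingual gland markers that the table holds summed to between 914 and 8260 CPM in 6 libraries and to between 0.98 and 44.1 CPM in the other 9. The 6, called sublingual-rich here, were IR_iEV_30d replicate 2, IR_iEV_4d replicates 2 and 3, IR_4d replicates 1 and 2, and NT replicate 1. Adipose markers (12 genes) summed to 923 CPM in IR_iEV_4d replicate 2, 421 in IR_iEV_4d replicate 1 and 440 in IR_4d replicate 3, against 134 to 234 CPM in the other 12 libraries. Skeletal muscle markers (11 genes) summed to 117 CPM in IR_iEV_4d replicate 2, against at most 5.34 in the others. T and NK cell markers (16 genes) summed to between 14.8 and 17.8 CPM in IR_iEV_30d glands, 14.7 to 16.5 in IR_30d, 5.47 to 8.28 in IR_iEV_4d, 4.54 to 7 in IR_4d, and 11.1 to 14.8 in NT glands. Macrophage and monocyte markers (12 genes) summed to between 262 and 321 CPM in IR_30d glands and to between 149 and 239 CPM in the other 12 libraries. Markers of granular convoluted tubules (8 genes, Egf among them) summed to between 150000 and 161000 CPM in IR_30d glands and to between 53600 and 109000 CPM elsewhere. B cell markers summed to at most 1.58 CPM in any library. The part of these cell types in the results on the 51 genes was tested only as far as the values given beside each result.

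**Figure D1:**
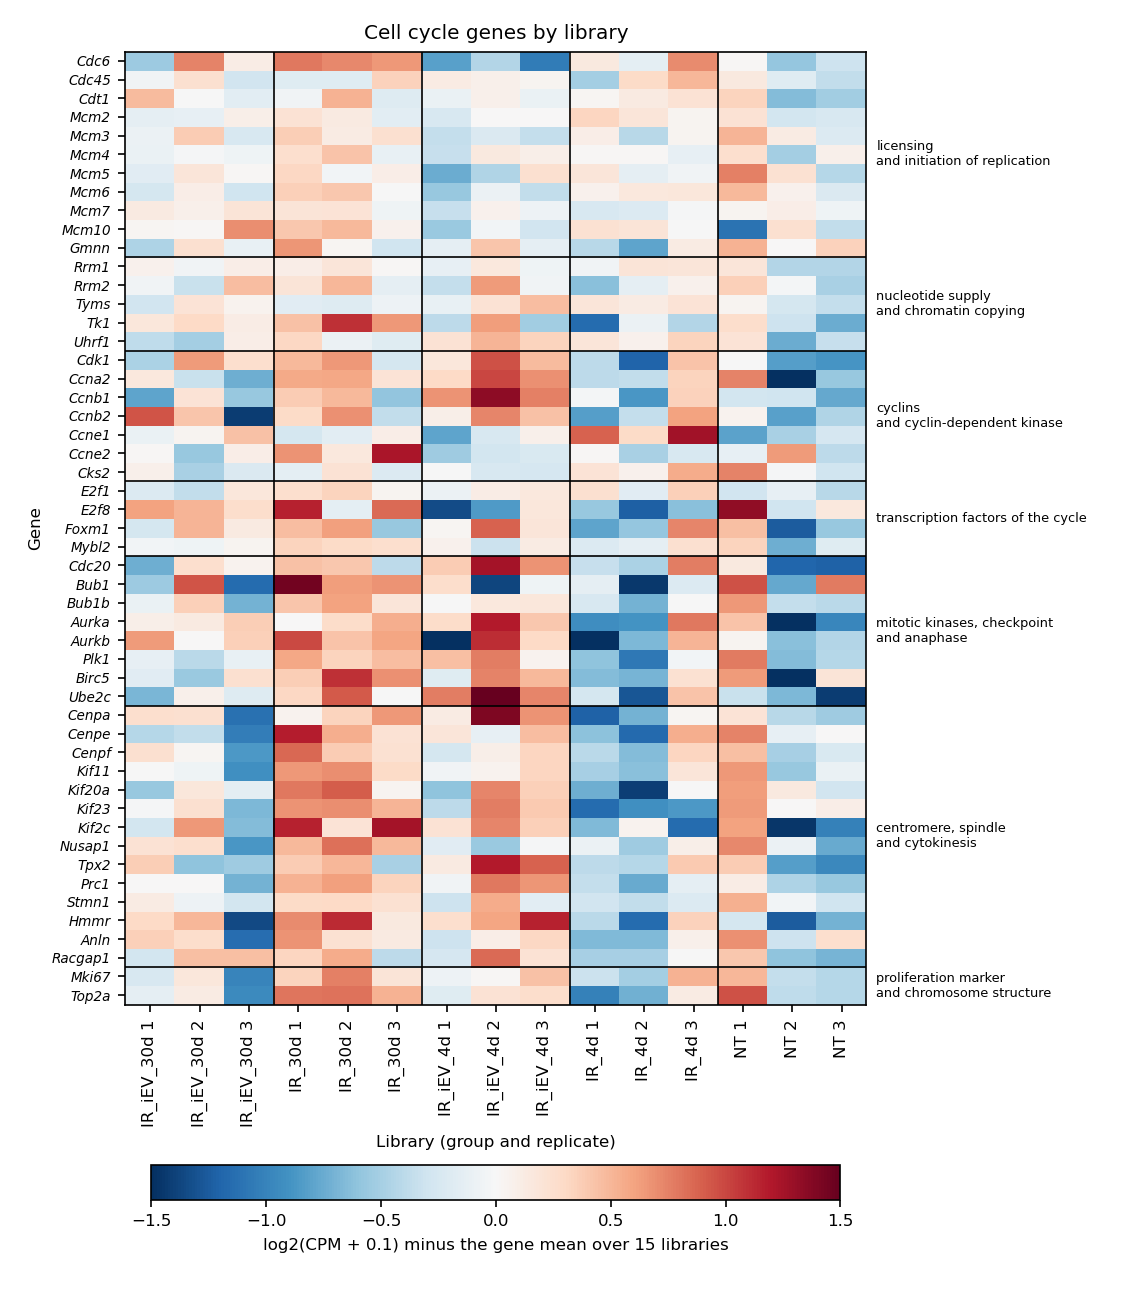
Heat map of the 51 genes (rows, grouped by role) in the 15 libraries (columns, grouped by condition), coloured by log2(CPM + 0.1) minus the mean of that gene over all libraries, with colours clipped at 1.5 in either direction. Most mitotic genes are red in the 3 IR_30d libraries and in IR_iEV_4d replicates 2 and 3, and blue in IR_4d replicates 1 and 2 and NT replicates 2 and 3; the replication genes in the top block are paler.

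The mean level of the 51 genes was highest in IR_30d glands, and 2 libraries stood apart from their own groups. Mean log2 CPM over the 51 genes was 0.95, 1.11 and 0.73 in IR_iEV_30d glands. In IR_30d glands it was 1.48, 1.46 and 1.19. In IR_iEV_4d glands it was 0.85, 1.36 and 1.22, in IR_4d glands 0.66, 0.52 and 1.19, and in NT glands 1.35, 0.49 and 0.61. IR_4d replicate 3 and NT replicate 1 lay well above the other libraries of their groups, at levels that IR_30d glands also reached. The level of each group as mean ± SD (n = 3) was 0.93 ± 0.19 in IR_iEV_30d, 1.38 ± 0.16 in IR_30d, 1.15 ± 0.26 in IR_iEV_4d, 0.79 ± 0.35 in IR_4d and 0.82 ± 0.46 in NT glands. In the order of these means, IR_4d, NT, IR_iEV_30d, IR_iEV_4d and IR_30d, the libraries of each group overlapped those of its neighbour.

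**Figure D2:**
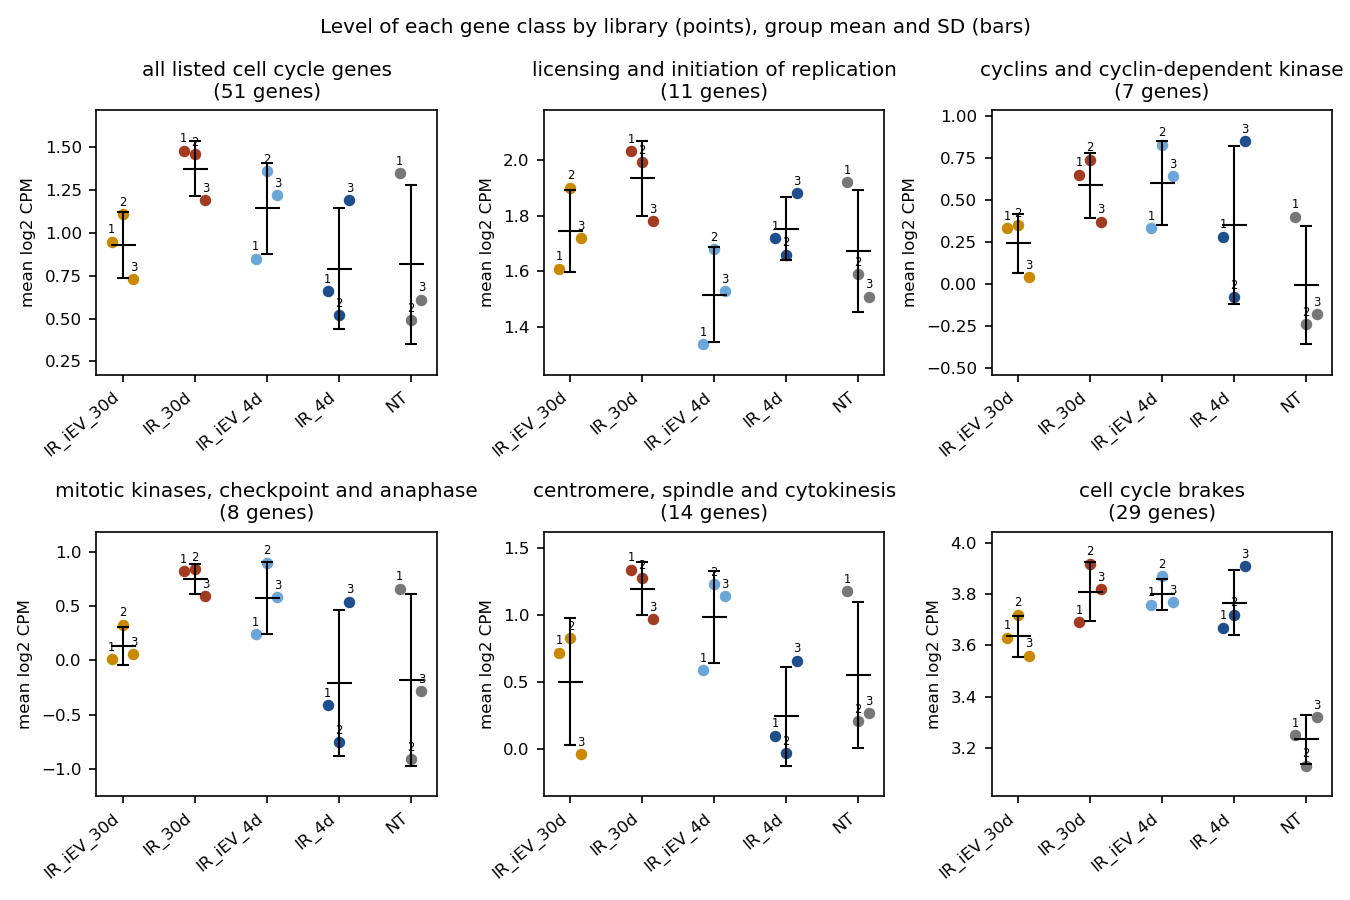
Mean log2 CPM of a gene class in each library (points, numbered by replicate), with the group mean and SD (bars, n = 3), for all 51 genes, for 4 of their role classes and for the list of cell cycle brakes. The vertical axes differ between panels. IR_4d replicate 3 and NT replicate 1 sit above the rest of their groups in the panel of all 51 genes, and the brakes panel shows every NT library below every irradiated one.

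Across 8 comparisons, 4 of the 51 genes passed an adjusted p of 0.05, each in a single comparison. Kif23, which codes for the mitotic kinesin MKLP1 of the spindle midzone, and Prc1, which codes for the protein that bundles midzone microtubules, rose in IR_30d against IR_4d glands. Ube2c, the ubiquitin-conjugating enzyme that works with the anaphase-promoting complex, rose in IR_iEV_4d against NT glands. Ccnb1, which codes for cyclin B1, the partner of CDK1 at entry into mitosis, fell in IR_iEV_30d against IR_iEV_4d glands. No listed gene was called in the other 5 comparisons, nor for the difference between the iEV effects at the 2 days. The comparisons share libraries (IR_4d glands stand in 3 of them, NT glands in 4), so their results are not independent of each other.

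Ube2c rose in IR_iEV_4d against NT glands. It had 0.966, 1.70 and 1.40 CPM in IR_iEV_30d glands, 2.02, 3.15 and 1.61 in IR_30d, 2.82, 5.13 and 2.75 in IR_iEV_4d, 1.33, 0.604 and 2.20 in IR_4d, and 1.26, 0.975 and 0.536 in NT glands. Every IR_iEV_4d library lay above every IR_4d and every NT library, with replicate 2, also the highest in adipose and muscle markers, far above the other pair. The log2 change against NT was 1.97 ± 0.44 (SE), adjusted p = 0.023. It was 1.38 ± 0.43 against IR_4d glands, adjusted p = 0.539, which did not pass. Without IR_iEV_4d replicate 2, a sublingual-rich library, the change against NT was 1.61, adjusted p = 0.108; it was 2.03 (adjusted p = 0.0891) without NT replicate 2 and 1.68 (adjusted p = 0.132) without NT replicate 3. Without all 6 sublingual-rich libraries, which leaves IR_iEV_4d with replicate 1 alone, it was 1.90. With sublingual and adipose marker levels as covariates it was 0.82, adjusted p = 0.837, a setting in which 63 of all genes were called against 371. Adipose marker sums did not overlap between IR_iEV_4d and NT glands (207 to 923 against 160 to 190 CPM). These covariates and the comparison can therefore hardly be told apart.

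Kif23 was at a tight low in IR_4d glands. It had 0.71, 0.865 and 0.411 CPM in IR_iEV_30d glands, 1.21, 1.23 and 1.06 in IR_30d, 0.524, 1.29 and 0.974 in IR_iEV_4d, 0.266, 0.332 and 0.35 in IR_4d, and 1.17, 0.723 and 0.777 in NT glands. The 3 IR_4d values were the lowest of all 15, and rested on 9, 11 and 10 counts. The log2 change in IR_30d against IR_4d glands was 1.88 ± 0.43, adjusted p = 0.0125. In IR_4d against NT glands it was −1.49 ± 0.43, adjusted p = 0.114, and in IR_iEV_4d against IR_4d glands 1.56 ± 0.43, adjusted p = 0.454; neither passed, although no library of one group reached the other. Without IR_4d replicate 1 the change between IR_30d and IR_4d was 1.77, adjusted p = 0.0553. Without the 6 sublingual-rich libraries, which leaves IR_4d with replicate 3 alone, it was 1.72. With sublingual and adipose marker levels as covariates it was 2.37, adjusted p = 0.0116, and the call stood. Mean log2 levels of the sublingual markers were 1.03 or lower in IR_30d and 1.06 or higher in IR_4d glands. These covariates and the comparison can therefore hardly be told apart.

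Prc1, like Kif23, averaged lowest in IR_4d glands, at a higher level than Kif23 on the CPM scale. It had 3.35, 3.33 and 2.00 CPM in IR_iEV_30d glands, 4.83, 5.16 and 4.21 in IR_30d, 3.21, 5.81 and 5.31 in IR_iEV_4d, 2.57, 1.93 and 3.01 in IR_4d, and 3.61, 2.39 and 2.22 in NT glands. IR_30d libraries all lay above those of IR_iEV_30d, IR_4d and NT glands. The log2 change in IR_30d against IR_4d glands was 0.92 ± 0.27, adjusted p = 0.0485, just inside the threshold. Leaving out any 1 of the 6 libraries of this comparison ended the call, with changes of 0.77 to 1.07; without IR_4d replicate 2 the adjusted p was 0.21 (change 0.77). Without the 6 sublingual-rich libraries, which leaves IR_4d with replicate 3 alone, the change was 0.65. With sublingual and adipose marker levels as covariates it was 1.27, adjusted p = 0.0279, and the call stood. As for Kif23, these covariates and the comparison can hardly be told apart.

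Ccnb1 was highest in IR_iEV_4d glands. It had 0.71, 1.51 and 0.845 CPM in IR_iEV_30d glands, 1.72, 1.86 and 0.831 in IR_30d, 2.13, 3.44 and 2.26 in IR_iEV_4d, 1.27, 0.664 and 1.68 in IR_4d, and 1.06, 1.04 and 0.721 in NT glands. The lowest IR_iEV_4d library lay above every other library of the study outside its group. The log2 change in IR_iEV_30d against IR_iEV_4d glands was −1.37 ± 0.39, adjusted p = 0.04, and in IR_iEV_4d against NT glands 1.49 ± 0.39, adjusted p = 0.0536, just outside. Without IR_iEV_4d replicate 2 the first of these was −1.10 (adjusted p = 0.133), without IR_iEV_30d replicate 1 −1.16 (0.131) and without IR_iEV_30d replicate 3 −1.24 (0.115). With sublingual and adipose marker levels as covariates it was −0.46 (adjusted p = 0.81), a setting in which 22 of all genes were called against 1327. Adipose marker sums did not overlap between these groups, so these covariates and the comparison can hardly be told apart. Without the 6 sublingual-rich libraries, which leaves IR_iEV_4d with replicate 1 alone, the change was −1.42. Several other single libraries left out, and the fit with the replicate block (0.0506), put its adjusted p just above the threshold. Genes named Ccnb1-ps, Ccnb2-ps and Tyms-ps, which mark processed copies of their parents, are annotated in the mouse genome, and how reads that fit several places were counted is not given, so the levels of Ccnb1, Ccnb2 and Tyms are uncertain to that extent.

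**Figure D3:**
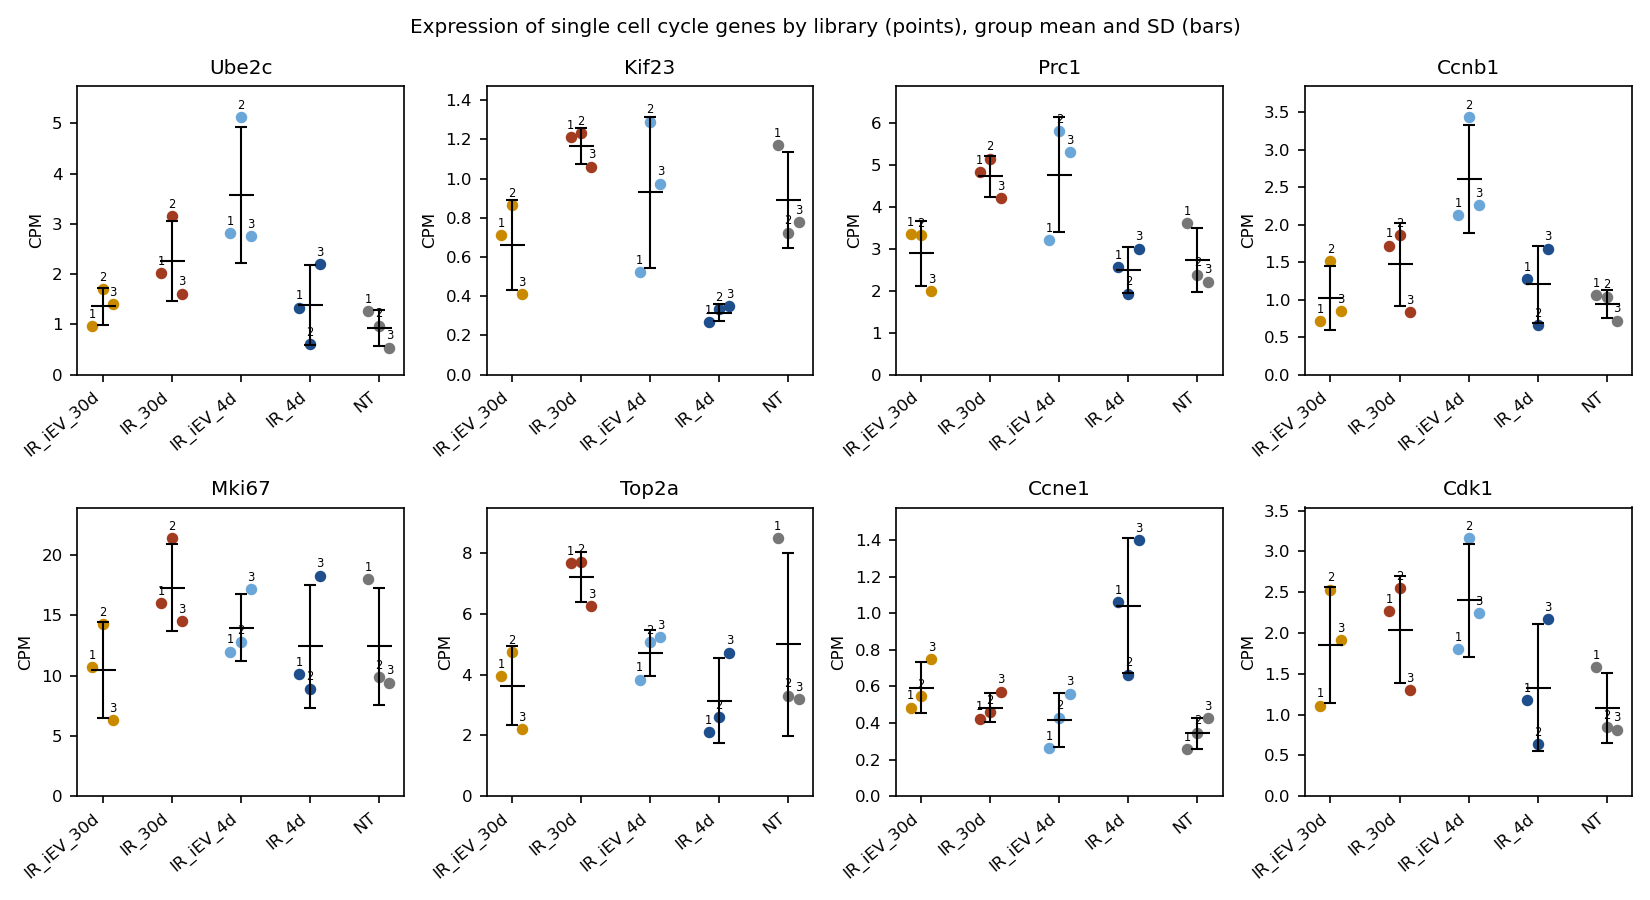
CPM of 8 of the genes in each library (points, numbered by replicate), with the group mean and SD (bars, n = 3); each vertical axis starts at 0. The top row holds the 4 genes that passed the threshold in a comparison; Kif23 was lowest in all 3 IR_4d libraries, and Ube2c and Ccnb1 averaged highest in IR_iEV_4d glands, at 3.57 and 2.61 CPM.

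The 4 called genes were set beside their promoters, because cell cycle genes are commonly grouped by promoter elements. In textbook accounts, late genes of G2 and mitosis carry a cell cycle homology region (CHR) near the start site, often with CCAAT boxes upstream, and genes of S phase carry E2F sites. RefSeq promoter windows (build GRCm38.p6, 250 bases before to 50 after a start) were found for 42 of the 51 genes. Each was searched on both strands for the CHR letters TTTGAA, for CCAAT and for the E2F letters TTTGGCGC or TTTCGCGC. The windows of Ube2c, Kif23, Prc1 and Ccnb1 follow, with that of Mcm6, a helicase subunit, as an example of a gene of replication. Each runs 5′ to 3′ on the strand of the gene, and capitals mark the motif matches.
Ube2c (chr2:164769679-164769978, plus strand): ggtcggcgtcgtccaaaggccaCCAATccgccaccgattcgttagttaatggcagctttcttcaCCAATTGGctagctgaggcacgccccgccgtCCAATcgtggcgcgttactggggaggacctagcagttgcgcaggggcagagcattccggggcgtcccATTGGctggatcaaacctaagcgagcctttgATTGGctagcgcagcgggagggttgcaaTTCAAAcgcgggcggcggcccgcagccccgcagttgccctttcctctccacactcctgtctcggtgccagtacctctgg
Kif23 (chr9:61946750-61947049, minus strand): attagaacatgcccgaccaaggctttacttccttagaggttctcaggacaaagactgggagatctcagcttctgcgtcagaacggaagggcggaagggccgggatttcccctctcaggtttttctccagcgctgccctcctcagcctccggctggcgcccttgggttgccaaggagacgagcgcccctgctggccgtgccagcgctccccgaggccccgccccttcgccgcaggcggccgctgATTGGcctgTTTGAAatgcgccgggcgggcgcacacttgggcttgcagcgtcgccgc
Prc1 (chr7:80294201-80294500, plus strand): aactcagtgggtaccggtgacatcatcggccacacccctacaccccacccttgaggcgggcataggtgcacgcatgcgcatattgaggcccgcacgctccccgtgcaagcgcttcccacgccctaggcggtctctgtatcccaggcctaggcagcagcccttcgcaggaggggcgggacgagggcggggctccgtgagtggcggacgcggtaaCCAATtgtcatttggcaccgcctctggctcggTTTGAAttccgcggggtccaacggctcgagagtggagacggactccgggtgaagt
Ccnb1 (chr13:100786437-100786736, minus strand): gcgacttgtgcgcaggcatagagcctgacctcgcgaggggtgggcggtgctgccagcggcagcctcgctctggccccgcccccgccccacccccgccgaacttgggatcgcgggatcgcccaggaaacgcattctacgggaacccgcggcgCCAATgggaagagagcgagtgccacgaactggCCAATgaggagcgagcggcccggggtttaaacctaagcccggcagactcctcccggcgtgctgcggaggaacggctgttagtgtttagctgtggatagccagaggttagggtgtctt
Mcm6 (chr1:128359656-128359955, minus strand): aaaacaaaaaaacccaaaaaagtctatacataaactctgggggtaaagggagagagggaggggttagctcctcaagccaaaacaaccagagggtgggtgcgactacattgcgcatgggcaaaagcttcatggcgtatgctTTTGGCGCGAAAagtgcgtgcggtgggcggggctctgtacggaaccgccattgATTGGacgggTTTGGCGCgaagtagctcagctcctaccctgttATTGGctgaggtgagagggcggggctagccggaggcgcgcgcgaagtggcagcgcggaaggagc
Ube2c, Kif23 and Prc1 each hold 1 CHR match (TTTGAA, or TTCAAA where it lies on the other strand), close to the start site. Ccnb1 holds none in this window. Ube2c holds 6 CCAAT matches, of which 1 pair overlaps, against 1 each in Kif23 and Prc1, and 2 each in Ccnb1 and Mcm6. Mcm6 holds 3 E2F matches, of which 1 pair overlaps, and the other 4 windows hold none. A match is a run of letters and not a shown site.

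Over the 42 genes with a window, the share holding CHR or E2F letters varied between role classes. The CHR letters stood in 21 of 42 windows (50%), against 20.2% of all 27025 RefSeq genes with a window, and CCAAT in 31 (73.8%) against 41.1%. E2F letters stood in 7 (16.7%) against 0.929%. In the 2 mitotic classes together, CHR letters stood in 14 of 18 windows (77.8%) and E2F letters in 0 of 18. In licensing and initiation, CHR letters stood in 2 of 9 (22.2%) and E2F letters in 5 of 9 (55.6%). CCAAT letters stood in 14 of 18 mitotic windows and in 7 of 9 licensing windows (77.8% each). CHR and CCAAT letters stood together in 12 of the 18 mitotic windows (66.7%), against 7.97% of all genes.

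None of the 11 genes that license and start replication was called in any comparison. Cdc6, which loads the MCM helicase onto origins, had 0.454, 1.25 and 0.773 CPM in IR_iEV_30d glands, 1.30, 1.23 and 1.17 in IR_30d, 0.36, 0.497 and 0.292 in IR_iEV_4d, 0.798, 0.634 and 1.22 in IR_4d, and 0.716, 0.44 and 0.555 in NT glands. IR_iEV_4d libraries lay below all IR_4d libraries, with a log2 change of −1.19 ± 0.43, adjusted p = 0.642. Mcm6, whose window is printed above, had 5.65, 7.30 and 5.48 CPM in IR_iEV_30d glands, 8.70, 9.03 and 6.78 in IR_30d, 4.55, 6.35 and 5.21 in IR_iEV_4d, 7.07, 7.61 and 7.66 in IR_4d, and 9.54, 7.11 and 5.81 in NT glands. Its log2 change was −0.47 ± 0.19 in IR_iEV_4d against both NT glands (adjusted p = 0.207) and IR_4d glands (adjusted p = 0.67). The other MCM genes, which code for subunits of the same ring (Mcm2 to Mcm5 and Mcm7), had log2 changes between −0.26 and 0.04 in IR_iEV_4d against IR_4d glands. Cdt1, which loads the helicase with Cdc6, its inhibitor Gmnn (geminin), and the helicase activators Cdc45 and Mcm10 had log2 changes between −0.65 and 0.71 over the 8 comparisons, with no adjusted p under 0.335. The class as a whole had median log2 changes between −0.24 and 0.20 over the 8 comparisons.

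The 5 genes of nucleotide supply and chromatin copying were not called in any comparison either. Tk1, the thymidine kinase of S phase, had 0.966, 1.06 and 0.918 CPM in IR_iEV_30d glands, 1.18, 1.92 and 1.38 in IR_30d, 0.622, 1.36 and 0.56 in IR_iEV_4d, 0.325, 0.785 and 0.594 in IR_4d, and 1.03, 0.66 and 0.462 in NT glands. IR_30d libraries all lay above IR_4d and NT libraries, and the log2 change against IR_4d was 1.39 ± 0.44, adjusted p = 0.068. Uhrf1, which recruits the maintenance DNA methyltransferase to copied chromatin, had 5.11, 4.68 and 7.20 CPM in IR_iEV_30d glands, 8.37, 6.31 and 5.89 in IR_30d, 7.79, 9.58 and 8.45 in IR_iEV_4d, 7.63, 7 and 8.49 in IR_4d, and 7.74, 3.96 and 5.25 in NT glands. Its IR_iEV_30d libraries lay below all IR_iEV_4d libraries (log2 change −0.60 ± 0.22, adjusted p = 0.097). Rrm1, Rrm2 and Tyms, which supply deoxynucleotides, had log2 changes between −0.32 and 0.42 in IR_30d against IR_4d glands.

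Among the 7 genes of cyclins and their kinase, Ccnb1 alone was called. Ccne1, cyclin E1 of the G1 to S step, had 0.483, 0.545 and 0.749 CPM in IR_iEV_30d glands, 0.423, 0.459 and 0.571 in IR_30d, 0.262, 0.429 and 0.56 in IR_iEV_4d, 1.06, 0.664 and 1.40 in IR_4d, and 0.258, 0.346 and 0.425 in NT glands. IR_4d libraries were above all NT, IR_30d and IR_iEV_4d libraries. The log2 change in IR_4d against NT glands was 1.58 ± 0.45, adjusted p = 0.106, the lowest of the 51 genes there. Cdk1, the mitotic kinase, had 1.11, 2.53 and 1.91 CPM in IR_iEV_30d glands, 2.27, 2.55 and 1.30 in IR_30d, 1.80, 3.16 and 2.24 in IR_iEV_4d, 1.18, 0.634 and 2.17 in IR_4d, and 1.58, 0.849 and 0.813 in NT glands. Its IR_iEV_4d libraries lay above all NT libraries (log2 change 1.17 ± 0.43, adjusted p = 0.161). Ccna2 and Ccnb2, cyclins A2 and B2, the CDK-binding subunit Cks2 and the second E-type cyclin Ccne2 had log2 changes between −0.98 and 1.07 over the 8 comparisons. The lowest adjusted p among these 4 was 0.141, for Ccne2 in IR_30d against IR_4d glands.

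The 4 transcription factors gave no call. E2f8, an atypical E2F that represses E2F targets late in S phase, had 0.795, 0.737 and 0.604 CPM in IR_iEV_30d glands, 1.21, 0.43 and 0.961 in IR_30d, 0.131, 0.226 and 0.56 in IR_iEV_4d, 0.296, 0.151 and 0.28 in IR_4d, and 1.38, 0.377 and 0.555 in NT glands. Its IR_4d libraries lay below all IR_30d and NT libraries, with log2 changes of 1.83 ± 0.62 in IR_30d against IR_4d (adjusted p = 0.0937) and −1.65 ± 0.62 in IR_4d against NT (adjusted p = 0.267). E2f1, an activator of S phase genes, had 2.87, 2.56 and 3.77 CPM in IR_iEV_30d glands, 3.99, 4.22 and 3.43 in IR_30d, 3.14, 3.62 and 3.73 in IR_iEV_4d, 3.96, 2.96 and 4.30 in IR_4d, and 2.72, 3.05 and 2.48 in NT glands. The IR_30d and IR_iEV_4d libraries all lay above the NT ones. It had log2 changes of 0.45 ± 0.20 in IR_4d and 0.50 ± 0.20 in IR_30d against NT glands, adjusted p = 0.39 and 0.204. Foxm1 and Mybl2, which activate genes of G2 and mitosis, had log2 changes between 0.11 and 0.74 against NT in the 4 irradiated groups.

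Ube2c, Kif23 and Prc1 belong to the 22 genes of the 2 mitotic classes, and no other gene of these classes was called. In the 8 genes of mitotic kinases, checkpoint and anaphase, the mean log2 CPM was 0.14 ± 0.17 in IR_iEV_30d glands, 0.75 ± 0.14 in IR_30d, 0.57 ± 0.33 in IR_iEV_4d, −0.21 ± 0.67 in IR_4d and −0.18 ± 0.79 in NT glands (SD, n = 3). In the 14 genes of centromere, spindle and cytokinesis it was 0.50 ± 0.47 in IR_iEV_30d, 1.2 ± 0.2 in IR_30d, 0.99 ± 0.34 in IR_iEV_4d, 0.24 ± 0.37 in IR_4d and 0.55 ± 0.54 in NT glands. Each IR_30d library was above the highest IR_4d and the highest IR_iEV_30d library in both classes. Cdc20, the activator of the anaphase-promoting complex, had 1.25, 2.56 and 2.22 CPM in IR_iEV_30d glands, 2.93, 2.87 and 1.61 in IR_30d, 2.82, 5.22 and 3.48 in IR_iEV_4d, 1.66, 1.51 and 3.71 in IR_4d, and 2.38, 0.88 and 0.869 in NT glands. All 3 IR_iEV_4d values were above the NT ones (log2 change 1.5 ± 0.45, adjusted p = 0.0968). Plk1, a kinase of mitotic entry and exit, had log2 changes of 1.05 ± 0.38 in IR_30d against IR_4d (adjusted p = 0.123) and of 1.03 ± 0.38 in IR_iEV_4d against IR_4d glands (adjusted p = 0.652). Hmmr, a spindle-associated hyaluronan receptor, had log2 changes of 1.5 ± 0.5 in IR_30d and 1.51 ± 0.5 in IR_iEV_4d against NT glands, adjusted p = 0.112 and 0.124.

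The remaining mitotic genes did not pass the threshold in any comparison. The values per library of Cenpa, Kif20a, Kif2c and Cenpe are shown because of their separate groups, a choice made after their values were seen. Cenpa, the histone variant that marks centromeres, had 1.05, 2.69 and 1.58 CPM in IR_iEV_4d glands, against 0.355, 0.543 and 0.979 in IR_4d glands. These groups did not overlap (log2 change 1.52 ± 0.48, adjusted p = 0.539). Kif20a, a kinesin of the midzone, had 2.99, 3.27 and 1.74 CPM in IR_30d glands, against 0.976, 0.574 and 1.68 in IR_4d glands, a log2 change of 1.32 ± 0.42 (adjusted p = 0.0707) with a narrow gap between the groups. Kif2c, a kinesin that shortens microtubules at centromeres, had 1.09, 0.516 and 1.17 CPM in IR_30d glands, against 0.237, 0.453 and 0.14 in IR_4d glands (1.72 ± 0.67, adjusted p = 0.152). Those groups were also separate, at counts low enough to leave a wide error. Cenpe, the kinesin that carries chromosomes to the spindle equator, had 0.824, 0.865 and 0.507 CPM in IR_iEV_30d glands, against 2.72, 1.72 and 1.35 in IR_30d glands. It had the lowest adjusted p of the 51 genes in that comparison, 0.175, with a log2 change of −1.4 ± 0.44. IR_iEV_30d libraries all lay below the lowest IR_30d library. Kif11, the motor that pushes the spindle poles apart, had log2 changes of −0.87 ± 0.34 in IR_iEV_30d against IR_30d (adjusted p = 0.279) and 0.87 ± 0.34 in IR_30d against IR_4d glands (adjusted p = 0.15). Birc5, which codes for survivin of the chromosomal passenger complex, had log2 changes of −0.93 ± 0.57 and 1.16 ± 0.59 in the same pair of comparisons, and its partner kinase Aurkb −0.36 ± 0.62 and 1.18 ± 0.65. Aurka, the kinase of the spindle poles, and its activator Tpx2 had log2 changes of 0.88 ± 0.56 and 0.94 ± 0.43 in IR_iEV_4d against IR_4d glands. The checkpoint genes Bub1 and Bub1b had log2 changes of 1.82 ± 0.81 and 0.74 ± 0.32 in IR_30d against IR_4d glands, and Bub1 rested on 2 to 36 counts per library. Cenpf, Nusap1, Stmn1, Anln and Racgap1, of the kinetochore, spindle and cleavage furrow, had log2 changes between 0.56 and 0.82 in IR_30d against IR_4d glands, none with an adjusted p under 0.05.

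Mki67, the common marker of cycling cells, did not pass in any comparison. It had 10.7, 14.3 and 6.33 CPM in IR_iEV_30d glands, 16.0, 21.4 and 14.5 in IR_30d, 12, 12.8 and 17.2 in IR_iEV_4d, 10.1, 8.91 and 18.3 in IR_4d, and 18.0, 9.87 and 9.41 in NT glands. IR_30d libraries lay above all IR_iEV_30d libraries by a small margin (log2 change −0.74 ± 0.36 in IR_iEV_30d against IR_30d, adjusted p = 0.42). Top2a, the topoisomerase that untangles chromosomes, had 3.95, 4.74 and 2.20 CPM in IR_iEV_30d glands, 7.67, 7.71 and 6.26 in IR_30d, 3.83, 5.06 and 5.24 in IR_iEV_4d, 2.10, 2.60 and 4.72 in IR_4d, and 8.48, 3.30 and 3.20 in NT glands. Only NT replicate 1 reached the IR_30d range. The change in IR_iEV_30d against IR_30d glands was −1 ± 0.39, adjusted p = 0.292, and in IR_30d against IR_4d glands 1.21 ± 0.39, adjusted p = 0.0902. Without the 6 sublingual-rich libraries, NT replicate 1 among them, Top2a passed the threshold in IR_iEV_30d against IR_30d and in IR_30d against NT glands.

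**Figure D4:**
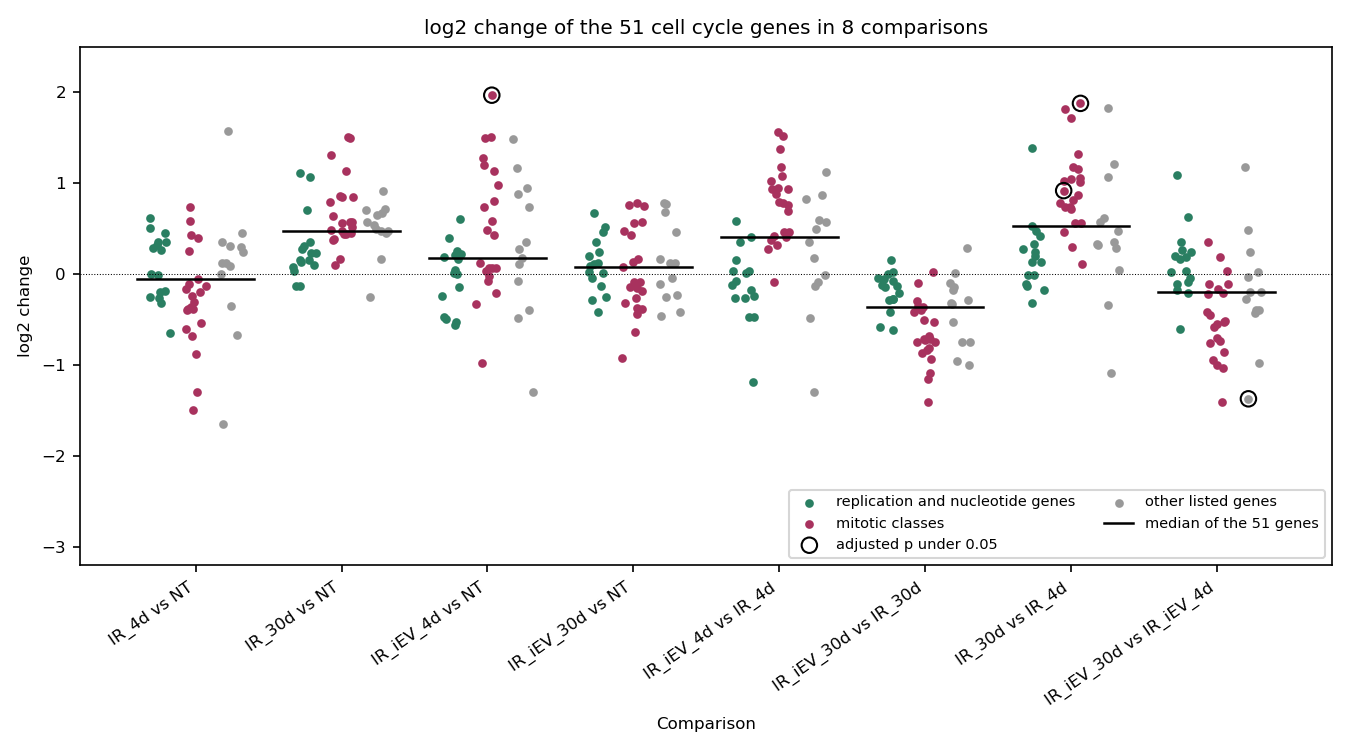
log2 change of the 51 genes in 8 comparisons (first-named group over the second), split into 16 genes of replication and nucleotides, 22 of the mitotic classes and 13 others, with the median of all 51 (line) and the genes past an adjusted p of 0.05 (circled). The mitotic genes lie above 0 in IR_30d against IR_4d and nearly all below 0 in IR_iEV_30d against IR_30d, whereas the replication genes stay closer to 0.

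Irradiation alone was compared with no treatment at both days. In IR_4d against NT glands, 0 of the 51 genes passed, where 1.4% of all genes did. At an unadjusted p of 0.05, 3 were higher and 2 lower (9.8%, against 11.6% of all genes). The median log2 change of the 51 was −0.05, against 0 over all genes, and the 14 spindle genes had a median of −0.31. The sign of this median depended on which libraries were kept, whereas the covariates made it more negative. It was 0.23 without NT replicate 1, and 0.56 without the 6 sublingual-rich libraries, which leaves IR_4d with replicate 3 alone. It was −0.28 without IR_4d replicate 3, −0.38 with sublingual and adipose covariates and −0.55 with T and B cell covariates. T and NK marker sums did not overlap between IR_4d and NT glands, so T and B cell covariates can hardly be told apart from this comparison. In IR_30d against NT glands, 0 of 51 passed against 4.48% of all genes, and 9 were higher and 0 lower at the unadjusted level (17.6%, against 16.3%). The median was 0.48 and 48 of the 51 estimates were positive; over all genes the median was 0 and 7932 of 16042 were positive. The summed macrophage and granular tubule markers were also highest in IR_30d glands, and their part was not tested. Single markers differed: Klk1 of the tubule list averaged lowest there (2470 CPM), and Cx3cr1 and Ly6c2 of the macrophage list were not highest there. Without NT replicate 1 the median was 0.82, without NT replicate 2 0.29, and without the 6 sublingual-rich libraries 0.80. With genes of at least 5 CPM only, which leaves 8 of the 51, it was 0.21.

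Irradiation with iEVs was likewise set against no treatment. In IR_iEV_4d against NT glands, Ube2c was the 1 gene of 51 that passed (1.96%, against 2.31% of all genes), and 11 were higher and 3 lower at the unadjusted level (27.5%, against 16.6%). The median was 0.18, against −0.01 over all genes. Without NT replicate 1, 8 of the 51 passed, where 792 of all genes did against 371 with it; the median was then 0.45. With T and B cell covariates the median was −0.22, but T and NK marker sums did not overlap between these groups either. In IR_iEV_30d against NT glands, 0 passed (1.1% of all genes did) and 0 reached an unadjusted p of 0.05 (against 12.9% of all genes). The median was 0.08.

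The iEV groups were then compared with irradiation alone on the same day. In IR_iEV_4d against IR_4d glands, 0 of 51 passed, where 0.0312% of all genes did, and 9 were higher and 3 lower at the unadjusted level (23.5%, against 6.81% of all genes). The 9 were Ccnb1, Plk1, Ube2c, Cenpa, Kif20a, Kif23, Tpx2, Prc1 and Hmmr, all genes of mitosis, and the 3 were Ccne1, Cdc6 and Mcm6, of G1 and S phase. The median was 0.41 over the 51, −0.24 over the licensing genes and 0.82 over the spindle genes, against 0 over all genes. Without the 6 sublingual-rich libraries, which leaves 1 library per group, the median of the 51 was −0.34. With genes of at least 5 CPM only, which leaves 8 of the 51, the median was 0.03. In IR_iEV_30d against IR_30d glands, 0 of 51 passed against 0.798% of all genes, and 0 were higher and 6 lower at the unadjusted level (11.8%, against 12.9%). The median was −0.36, with 45 of the 51 estimates negative, against −0.01 and 8261 of 16042 over all genes. Leaving out single libraries kept this median between −0.49 and −0.30. With genes of at least 5 CPM only, it was −0.27.

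Day 30 was compared with day 4 within each treatment. In IR_30d against IR_4d glands, 2 of 51 rose (3.92%, against 6.81% of all genes called), and 18 were higher and 1 lower at the unadjusted level (37.3%, against 19.8%). The 1 lower gene was Ccne1, and 10 of the 18 were spindle genes. The median was 0.53, against −0.01 over all genes. Without IR_4d replicate 3 it was 0.87, and without IR_4d replicate 2 it was 0.33. It was 0.16 without the 6 sublingual-rich libraries, which leaves IR_4d with replicate 3 alone. With sublingual and adipose covariates it was 0.86 and with T and B cell covariates 1.2. Mean log2 sublingual levels and T and NK marker sums did not overlap between these groups, so the covariates and day can hardly be told apart. With genes of at least 5 CPM only, which leaves 8 of the 51, the median was 0.20. The summed T and NK cell markers were also higher at day 30 in both treatments. Of that list, Cd4 averaged lower in IR_30d than in IR_4d glands (0.368 against 0.433 CPM). Gzmb averaged lower in IR_iEV_30d than in IR_iEV_4d glands (0.861 against 0.891 CPM). In IR_iEV_30d against IR_iEV_4d glands, 1 of 51 fell (1.96%, against 8.27% called of all genes), and 1 was higher and 7 lower at the unadjusted level (15.7%, against 24.2%). The median was −0.19, but 0.20 with sublingual and adipose covariates and 0.49 with T and B cell covariates. Adipose sums and T and NK marker sums did not overlap between these groups, so the covariates and day can hardly be told apart. The difference between the iEV effects at day 30 and day 4 was tested directly: 0 of 51 passed (0.125% of all genes did), and 1 was higher and 16 lower at the unadjusted level (33.3%, against 9.05%). The median difference was −0.82, against −0.01 over all genes. It was −0.08 without the 6 sublingual-rich libraries, which leaves 1 library each in IR_4d and IR_iEV_4d. With genes of at least 5 CPM only, it was −0.16. The lowest adjusted p was that of Prc1 at 0.133, with a difference of −1.65 ± 0.38.

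Other genes of the cycle were read from lists of the same pathway. Of 94 further replication and mitosis genes tested, 1 was called in IR_iEV_30d against NT glands (1.1% of all genes were), 2 in IR_30d (4.48%), 4 in IR_iEV_4d (2.31%) and 3 in IR_4d (1.4%). Gtse1, a p53-regulated protein of the G2 and M microtubules, rose in all 4. It had 2.98, 2.79 and 2.00 CPM in IR_iEV_30d glands, 3.87, 3.18 and 3.01 in IR_30d, 6.58, 7.66 and 6.57 in IR_iEV_4d, 4.79, 5.37 and 5.35 in IR_4d, and 1.40, 0.723 and 0.887 in NT glands. Every irradiated library was above every NT library, with log2 changes of 1.36, 1.74, 2.79 and 2.36 in that order of groups. Ckap2, a spindle protein, rose in IR_iEV_4d (1.57 ± 0.22, adjusted p = 0.000394) and in IR_4d (1.41 ± 0.22, adjusted p = 0.00138) against NT glands, and fell in IR_30d against IR_4d glands (−1.21 ± 0.22, adjusted p = 0.00253). Hmgb2, a chromatin protein of the high mobility group, fell in IR_iEV_4d (−0.78 ± 0.12, adjusted p = 0.00175) and in IR_4d (−0.53 ± 0.12, adjusted p = 0.04) against NT glands. Nek2, a centrosome kinase, rose in IR_iEV_4d against NT glands (1.81 ± 0.44, adjusted p = 0.0385). Espl1, which codes for separase, the protease that cuts cohesin at anaphase, had 8.31, 8.95 and 8.33 CPM in IR_30d glands, against 2.42, 2.45 and 2.94 in IR_4d glands. It rose between them without overlap (1.71 ± 0.24, adjusted p = 0.000345), and also in IR_30d against NT glands (1.19 ± 0.23, adjusted p = 0.00526). Spag5 and Knl1, of the spindle and kinetochore, rose in IR_30d against IR_4d glands as well. In IR_iEV_30d against IR_iEV_4d glands, Espl1 and Hmgb2 rose (1.02 and 0.65), and Gtse1, Ckap2, Cks1b, Asf1b, Ncaph and Fam83d fell, 8 of 94 called where 8.27% of all genes were. The fall of Fam83d, a spindle protein, was −3.08 ± 0.74 (adjusted p = 0.0177). It rested on very low levels, 0.142, 0.032 and 0.121 CPM in IR_iEV_30d against 0.655, 0.882 and 1.07 in IR_iEV_4d glands. Cks1b, a CDK-binding subunit, fell in IR_iEV_30d against IR_30d glands, with 6.14, 5.38 and 6.13 CPM against 8.79, 9.09 and 8.98. The groups did not overlap (−0.60 ± 0.13, adjusted p = 0.0303).

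Several p53 targets among the brakes of the cycle rose against NT glands. Of 29 brake genes tested, 6 rose in IR_iEV_30d against NT glands, where 1.1% of all genes were called in either direction. In IR_30d, IR_iEV_4d and IR_4d glands 7 rose, where 4.48%, 2.31% and 1.4% of all genes were called, and none was called lower in any of the 4 comparisons. They were Cdkn1a, Mdm2, Ccng1, Sesn2, Zmat3, Phlda3 and, except in IR_iEV_30d, Plk2, all known as p53 targets. Cdkn1a had 35.4, 34.0 and 30.5 CPM in IR_iEV_30d glands, 24.9, 45.8 and 31.0 in IR_30d, 74.3, 86.0 and 70.9 in IR_iEV_4d, 44.1, 64.1 and 60.3 in IR_4d, and 2.92, 1.76 and 3.03 in NT glands. All irradiated libraries lay above all NT libraries. None of the 29 was called in IR_iEV_4d against IR_4d or in IR_iEV_30d against IR_30d glands, where 0.0312% and 0.798% of all genes were. At an unadjusted p of 0.05, 4 brakes were higher and 0 lower in the first, and 1 was higher and 5 lower in the second. Among 16 G1 cyclins, kinases and E2F genes, Ccnd1 (cyclin D1) rose in IR_4d against NT glands (0.60 ± 0.13, adjusted p = 0.0307), Ccnd2 (cyclin D2) fell in IR_iEV_30d (−0.70 ± 0.13, adjusted p = 0.00952) and Cdk4 fell in IR_30d (−0.32 ± 0.09, adjusted p = 0.0381). Among repair genes tied to replication, Msh6, which codes for a mismatch repair protein, rose in IR_4d against NT glands.

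**Figure D5:**
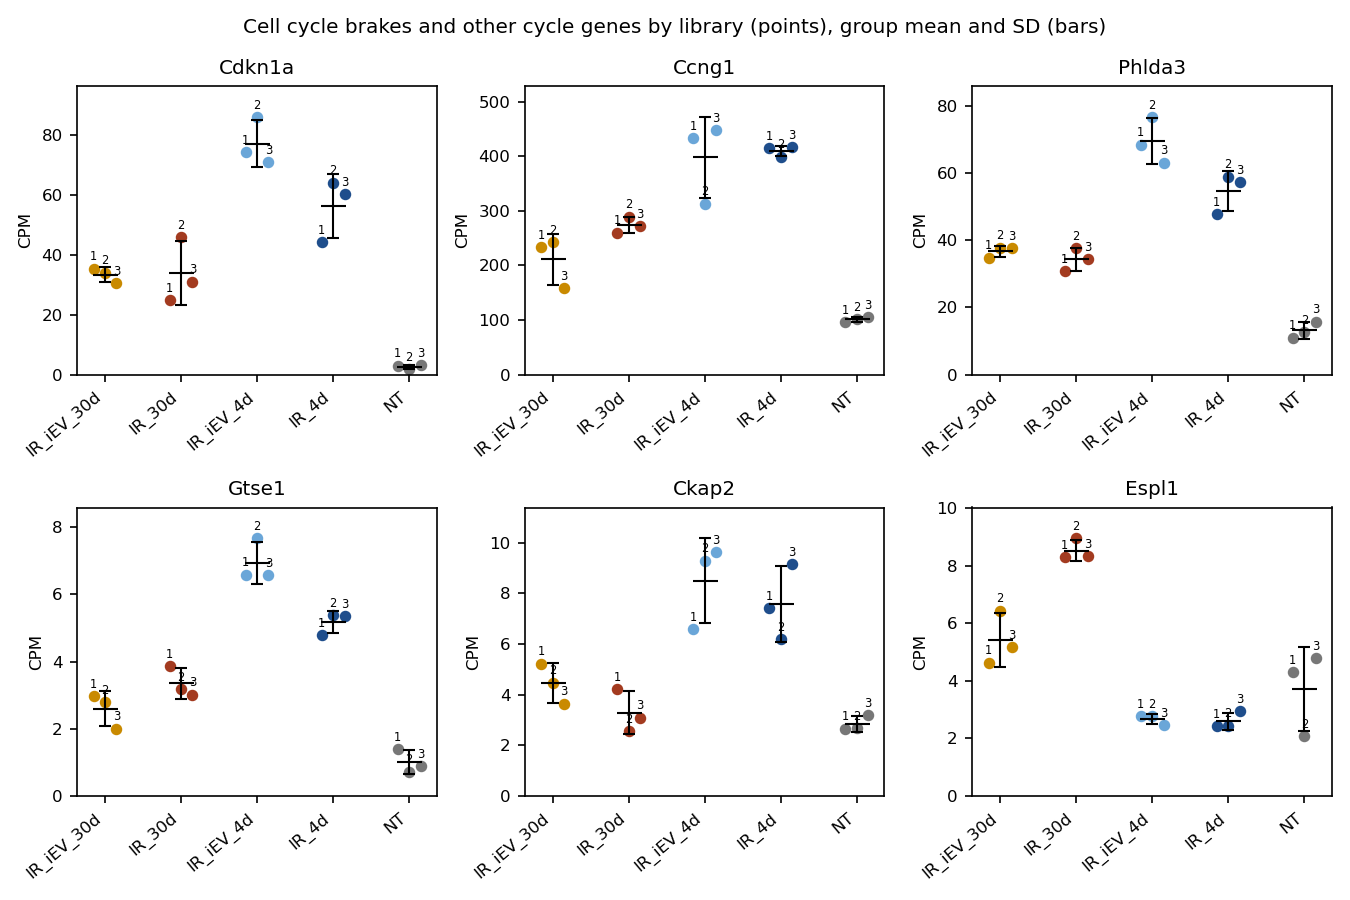
CPM of 3 brakes (Cdkn1a, Ccng1, Phlda3) and 3 further cycle genes (Gtse1, Ckap2, Espl1) in each library (points, numbered by replicate), with the group mean and SD (bars, n = 3); each vertical axis starts at 0. The 4 p53 targets Cdkn1a, Ccng1, Phlda3 and Gtse1 lie above NT in every irradiated library, and Espl1 is highest in the 3 IR_30d libraries, at 8.31 to 8.95 CPM.

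Genes outside the cell cycle lists were ranked by how closely their levels followed the mean of the 51 over the 15 libraries. Genes of the lists were left out of this ranking beforehand. By Spearman correlation among 15825 genes, the first 5 were Gm7972 (0.85), Pde8a (0.84), Serping1 (0.82), Tmem106a (0.8) and Rslcan18 (0.8). These are descriptions over libraries that share their groups and their sublingual content.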

How the data were processed

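Whole-gland RNA of 15 submandibular gland libraries was read from 1 table that the authors deposited, with whole-number read counts per gene symbol and 1 column per library. RNA was extracted with TRIzol and libraries were made with a directional NEXTFLEX kit, per the labels' protocols. TopHat, HTSeq, DESeq2 and the build GRCm39 are named in the submitters' processing notes, without versions; the annotation, the strand setting and the handling of reads with several matches are not given in the sources used here. No pair of libraries within a group agreed within counting noise.

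Counts were scaled by TMM and filtered by filterByExpr, with a minimum count of 10 and a minimum total of 15. A single model held the 5 groups, which left 10 residual degrees of freedom, and each comparison was drawn from it by the robust quasi-likelihood test of edgeR 4.0.16 (R 4.3.3). P-values were adjusted by Benjamini-Hochberg over all 16042 genes within each comparison, with a threshold of 0.05. Log2 changes are given with a standard error derived from the F statistic. Log2 CPM used a prior count of 2. Totals of 29082798 to 52201098 counts and 3 libraries per group limit the precision. Exonic lengths, used only for levels per kilobase, and names of processed copies came from GENCODE M21, an annotation of the preceding build, and promoter windows from RefSeq. The scripts were tested on simulated data.

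Values per library are given for genes called in any comparison, for the 2 genes of each role class with the lowest p over all 5 groups, and for Mki67, Top2a, Cdk1 and Ccnb1; from the other lists, called genes and Cdkn1a are named, up to 6 per list by lowest p, and further called genes were added after their values were seen. The 51 genes, the lists and the tests were chosen with earlier results of these data known. Alternatives were DESeq2 1.42.0, limma-voom (limma 3.58.1), DESeq2 size factors, other low-count filters, a fit of each comparison's own libraries, the replicate block, marker covariates, and libraries left out. Some genes of the further lists are not reported here.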

Additional observations from a re-analysis of the deposited data

How the results depend on the processing

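The number of the 51 genes called depended on the setting, as did the number over all genes; the cause was not tested beyond the counts given. In IR_30d against IR_4d glands the 2 calls (1092 over all genes) became 6 with DESeq2 (1461), 1 with limma-voom (993), 11 in a fit of those 6 libraries alone (2280), 4 with sublingual and adipose covariates (542), and 0 with T and B cell covariates (0), with genes of at least 5 CPM only (768), or without the 6 sublingual-rich libraries (374). The 5 CPM filter leaves 8 of the 51 genes and none of the 4 called ones, so its counts of 0 follow from the filter. In IR_iEV_4d against NT glands the 1 call (371) became 4 with DESeq2 (843), 3 with limma-voom (386) and 2 with no low-count filter (353); it became 0 in the own fit (106), with sublingual and adipose covariates (63), with T and B cell covariates (36), at 5 CPM, and without the 6 libraries (327). In IR_iEV_30d against IR_iEV_4d glands the 1 call (1327) became 2 with DESeq2 (1880) and 2 with limma-voom (1262), and 0 in the own fit (506), with sublingual and adipose covariates (22), with T and B cell covariates (0), at 5 CPM, and without the 6 libraries (267). T and NK marker sums do not overlap between the days, so T and B cell covariates and day can hardly be told apart, and with no gene called at all that setting says nothing of the 51 genes. Where edgeR called 0, DESeq2 called 1 gene in IR_4d (448 over all genes) and 2 in IR_30d (1093) against NT glands. It also called 2 for the difference between iEV effects (114). The own fit called 1 in IR_30d against NT glands (793). Without the 6 libraries, Top2a passed in IR_30d against NT and in IR_iEV_30d against IR_30d glands, as given above. No listed gene was called in IR_iEV_30d against NT or in IR_iEV_4d against IR_4d glands under any alternative run. Over all genes, these alternatives called 35 to 410 in the first and only 0 to 30 in the second.

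Leaving out each library in turn gave 0 to 4 calls in IR_30d against IR_4d glands (536 to 1267 over all genes). It gave 0 to 8 in IR_iEV_4d against NT (135 to 792) and 0 to 3 in IR_iEV_30d against IR_iEV_4d glands (710 to 1573). In IR_30d against NT it gave 0 to 2 (355 to 884), and in IR_4d against NT glands 0 to 1 (119 to 386).

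Replicate numbers gave no pairing: 5 of 30 same-numbered pairs correlated over 0.1 (r between −0.292 and 0.188), and 4 of 15 libraries correlated best with their own number. With the replicate block, 1 gene was called in IR_30d against IR_4d (956 over all genes), 1 in IR_iEV_4d against NT (305) and 0 in IR_iEV_30d against IR_iEV_4d glands (1136).

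Directions turned round for 15 values, of which Fam83d, not among the 51, was a called gene. With T and B cell covariates, where SEs ran from 0.29 to 2.5, these were Rrm1 in IR_4d against NT (−0.13), Uhrf1 (−0.04) and Aurka (−0.87) in IR_iEV_4d against NT, Bub1 in IR_30d against IR_4d (−0.61), and, in IR_iEV_30d against IR_iEV_4d, Cdc20 (1.03), Uhrf1 (0.49), Cenpa (0.63), Tpx2 (0.27) and Fam83d (0.43). With sublingual and adipose covariates they were Cdc20 (0.11) and Cenpa (0.07) in the last of these comparisons. Without the 6 libraries they were Kif20a (−0.65), Tpx2 (−0.28) and Hmmr (−0.11) in IR_iEV_4d against IR_4d, and Tpx2 for the difference between iEV effects (0.09). At these levels, many with fewer than 66 counts in a library, smaller changes may go undetected.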
